A study of Bos taurus with 9 samples.

Results

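The genes described here stood within 2 times their level in bovine ear fibroblasts on day 3 of a chemical conversion toward adipocyte-like cells, and were higher on day 6. They were selected by their CPM (the counts of a gene scaled to the total counts of the sample). A gene entered when its mean in CiADCs-6d was at least 5 CPM and more than 2 times the mean of both CiADCs-3d and AnEFs-0d, when its lowest CiADCs-6d sample lay above every other sample, and when its CiADCs-3d mean was under 2 times its AnEFs-0d mean. The rule took 101 of 21512 genes, and 0.961% of the 10510 genes with at least 5 CPM in CiADCs-6d. Because the rule used the values of all 9 samples, the levels and folds of these genes are a description and are given without a test.

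AnEFs-0d are fibroblasts grown from bovine ear tissue in DMEM with serum and no compounds, the cells the study's text calls BEFs. CiADCs-3d and CiADCs-6d are the same kind of cells after 3 and 6 days in N2B27 medium with 500 µg/mL valproic acid (VPA), 1 µM TTNPB and 10 µM RepSox. Valproic acid is an inhibitor of histone deacetylases, TTNPB an agonist of the retinoic acid receptors, and RepSox an inhibitor of the type I receptor kinase for TGF-beta. Each group held 3 samples, and p-values measure only the spread between these samples, since no source says whether they came from separate animals or inductions. No untreated culture of day 3 or day 6 was sequenced, so compounds, medium and time cannot be told apart.

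The samples held between 18509244 and 24071580 counts each. Of 12 fibroblast marker genes, all had counts in these libraries, and their summed level was 86934 to 92079 CPM in AnEFs-0d, 47357 to 60565 CPM in CiADCs-3d and 33322 to 46042 CPM in CiADCs-6d. The 13 adipocyte markers summed to 32.3 to 37.9 CPM in AnEFs-0d, 52.3 to 68.5 CPM in CiADCs-3d and 50.1 to 53.6 CPM in CiADCs-6d. ADIPOQ, the adipocyte hormone adiponectin, averaged 4.016 CPM in CiADCs-6d and 1.129 CPM in AnEFs-0d, while FABP4, the fatty acid carrier of fat cells, averaged 0.8738 CPM in CiADCs-6d and 10.77 CPM in AnEFs-0d. Blood cell and macrophage markers summed to 1.58 to 2.53 CPM in AnEFs-0d, 50.2 to 52.2 CPM in CiADCs-3d and 79.3 to 99.8 CPM in CiADCs-6d, with PTPRC and TYROBP at 0 in all samples, and endothelial markers to 12.4 to 18.3, 318 to 459 and 206 to 328 CPM on days 0, 3 and 6. Their part in the late genes was not tested. Of 9 cell marker lists, 8 held no gene of the late set, and the neuron list held SYN1. The set is a small share of all genes, so nothing is read from the empty lists. In bulk RNA, a smaller number of cells of a type and less RNA per cell cannot be told apart.

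The p53 protein switches on genes that halt the cell cycle, repair DNA or start cell death, and it is held in check by MDM2, which is itself a p53 target. Release of paused RNA polymerase II depends on the kinase P-TEFb, which the protein HEXIM1 keeps inactive with the 7SK RNA, while the bromodomain protein BRD2 binds acetylated histones. The TGF-beta, activin and BMP pathways are shaped by ligands such as INHBA and by inhibitors inside the cell or at its surface such as SMAD6 and BAMBI.

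In sum the set stood at 2826 CPM in AnEFs-0d, 3524 CPM in CiADCs-3d and 8828 CPM in CiADCs-6d. Per sample the summed levels were 2707, 2744 and 3028 CPM in AnEFs-0d, 4039, 3070 and 3464 CPM in CiADCs-3d, and 8478, 9184 and 8823 CPM in CiADCs-6d. The median gene of the set followed the same steps, at 8.39, 8.81 and 8.75 CPM in AnEFs-0d, 11.9, 10.6 and 11.5 CPM in CiADCs-3d, and 28.5, 29.2 and 28.4 CPM in CiADCs-6d. Most of the step on both scales therefore lay between CiADCs-3d and CiADCs-6d, as the rule requires. In CiADCs-6d, 20 genes stood at 100 CPM or more, 58 between 10 and 100 CPM, and 23 between 5 and 10 CPM.

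**Figure D1:**
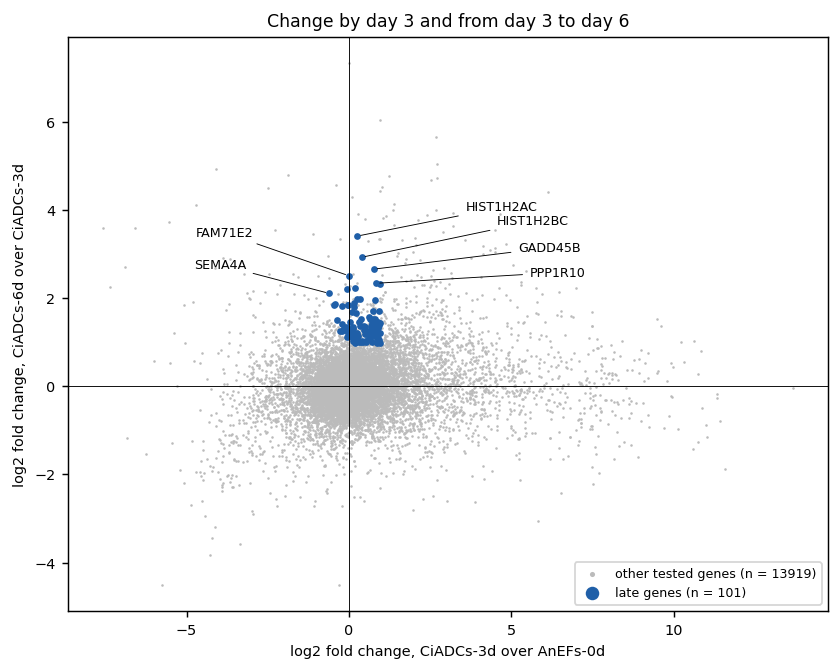
Log2 fold change of CiADCs-3d over AnEFs-0d (x axis) and of CiADCs-6d over CiADCs-3d (y axis) for the 101 late genes (blue) and the other tested genes (grey). The late genes lie near or above 1 on the y axis, up to 3.41 for HIST1H2AC, and near or below 1 on the x axis, because the rule placed them there.

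The ratio of the CiADCs-6d mean to the CiADCs-3d mean ran from 2 to 11, with a median of 2.47. It was at least 3 for 23 genes, at least 4 for 11 genes, and under 2.5 for 54 genes. Against AnEFs-0d the ratio of CiADCs-6d had a median of 3.48 and reached 13.1. CiADCs-3d over AnEFs-0d ran from 0.656 to 1.98 with a median of 1.31, and 84 of the 101 genes had a CiADCs-3d mean above their AnEFs-0d mean. The rule used these same means, and the share of all tested genes above AnEFs-0d on day 3 was not counted. Nothing is therefore read from the 84.

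In edgeR's quasi-likelihood test across 14020 genes (Benjamini-Hochberg adjusted p under 0.05, log2 fold change of 1 or more in size), 97 of the 101 were called higher in CiADCs-6d than in CiADCs-3d, where 4.09% of all tested genes were. In CiADCs-6d against AnEFs-0d, 100 were called higher, where 21.9% of all tested genes were, and 96 were called in both comparisons. The rule used these contrasts, so nothing is read from these counts. In CiADCs-3d against AnEFs-0d, 0 were called higher and 0 lower, where 18.2% and 9.94% of all tested genes were. The rule's limit of 2 times AnEFs-0d bears on the higher calls. The rule set no direct limit on how far CiADCs-3d could lie below AnEFs-0d. It did require a CiADCs-6d mean of more than 2 times AnEFs-0d, which bars genes that fell by day 3 and stayed low. Nothing is therefore read from the 0 lower calls either. The median log2 fold change of the set was 1.28 in CiADCs-6d against CiADCs-3d, 1.76 in CiADCs-6d against AnEFs-0d and 0.38 in CiADCs-3d against AnEFs-0d, beside 0.01, 0.03 and 0.01 over all tested genes. EXO5, DUSP16, SYDE2 and ABHD8 were not called against CiADCs-3d, with log2 fold changes of 0.98 to 1.00, and INHBA was not called against AnEFs-0d.

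The limits of the rule cut through continuous values. On level, SYDE2 at 5.082 CPM and LIN7B at 5.19 CPM were just inside, and GYLTL1B at 4.663 CPM and PP2D1 at 4.651 CPM just outside. On the ratio to CiADCs-3d, SYDE2 at 2.002 and EXO5 at 2.013 were inside, and PLA2G4B at 1.999 and EHD4 at 1.998 outside. On the ratio to AnEFs-0d, INHBA at 2.018 was inside and CASP14 at 1.979 outside, and on the ratio of CiADCs-3d to AnEFs-0d, PTGER4 at 1.977 was inside and LRRC25 at 2.002 outside. On the gap between the lowest CiADCs-6d sample and the highest other sample, HMGA1 had a ratio of 1.032 and SMAD6 of 1.04, while TSC22D3 had 0.9379. A further 257 genes missed only the ratio to CiADCs-3d, 182 only the level, 145 only the limit on CiADCs-3d, 32 only the ratio to AnEFs-0d and 4 only the gap.

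The shared shift of these genes in a sample was taken as the median of their signed log2 deviations from the gene's group mean. It was largest in CiADCs-3d sample 2 (-0.19), CiADCs-3d sample 1 (0.18) and CiADCs-6d sample 1 (-0.13), and was -0.04 to 0.01 in AnEFs-0d. This median does not measure how far single genes scatter between replicates. CiADCs-6d sample 1 was the lowest of its group for 60 of the 101 genes (59.4%), against 41% of the other genes with at least 5 CPM in CiADCs-6d, and CiADCs-3d sample 1 was the highest of its group for 56 (55.4%), against 47%. Both held together for 42 genes. CiADCs-3d sample 2 was the lowest of its group for 60 genes (59.4%), against 36.8% of the other genes. Another 16 genes had the opposite look in CiADCs-6d, with sample 1 the highest there and sample 3 the highest in CiADCs-3d. Neither joint pattern was counted over the other genes, so nothing is read from the 42 or the 16.

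The number of genes that met the rule depended most on the CiADCs samples numbered 1. Without CiADCs-3d sample 1 the rule took 182 genes, of which 93 were among the 101, and without CiADCs-6d sample 1 it took 162, of which 94 were among them. Without both it took 255, of which 90 were among the 101. Leaving out any of the other 7 samples gave 83 to 103 genes. Of the 101 genes, 60 met the rule whichever single sample was left out, among them BRD2, HEXIM1, TP53INP1, CYR61, HIST1H2AC and SYN1. MDM2, HMGA1, SMAD6 and INHBA each missed it without any 1 of 3 samples, PPP1R10 without CiADCs-3d sample 1 or 2, GADD45B without CiADCs-3d sample 2 and HMOX1 without CiADCs-6d sample 1.

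**Figure D2:**
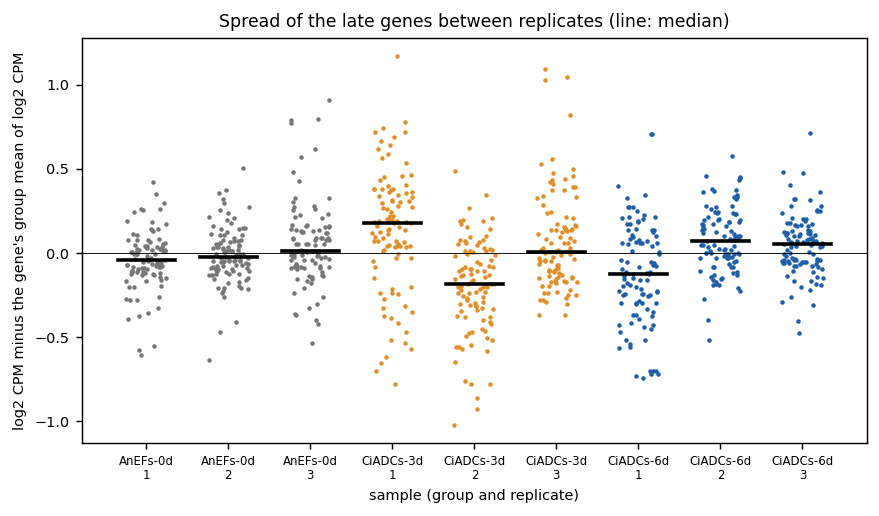
Log2 CPM minus the gene's group mean of log2 CPM (y axis) for each of the 101 late genes (points) in each sample (x axis), with the median as a line. The median deviation was -0.13 in CiADCs-6d sample 1, 0.18 in CiADCs-3d sample 1 and -0.19 in CiADCs-3d sample 2, with -0.04 to 0.01 in the AnEFs-0d samples.

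**Figure D3:**
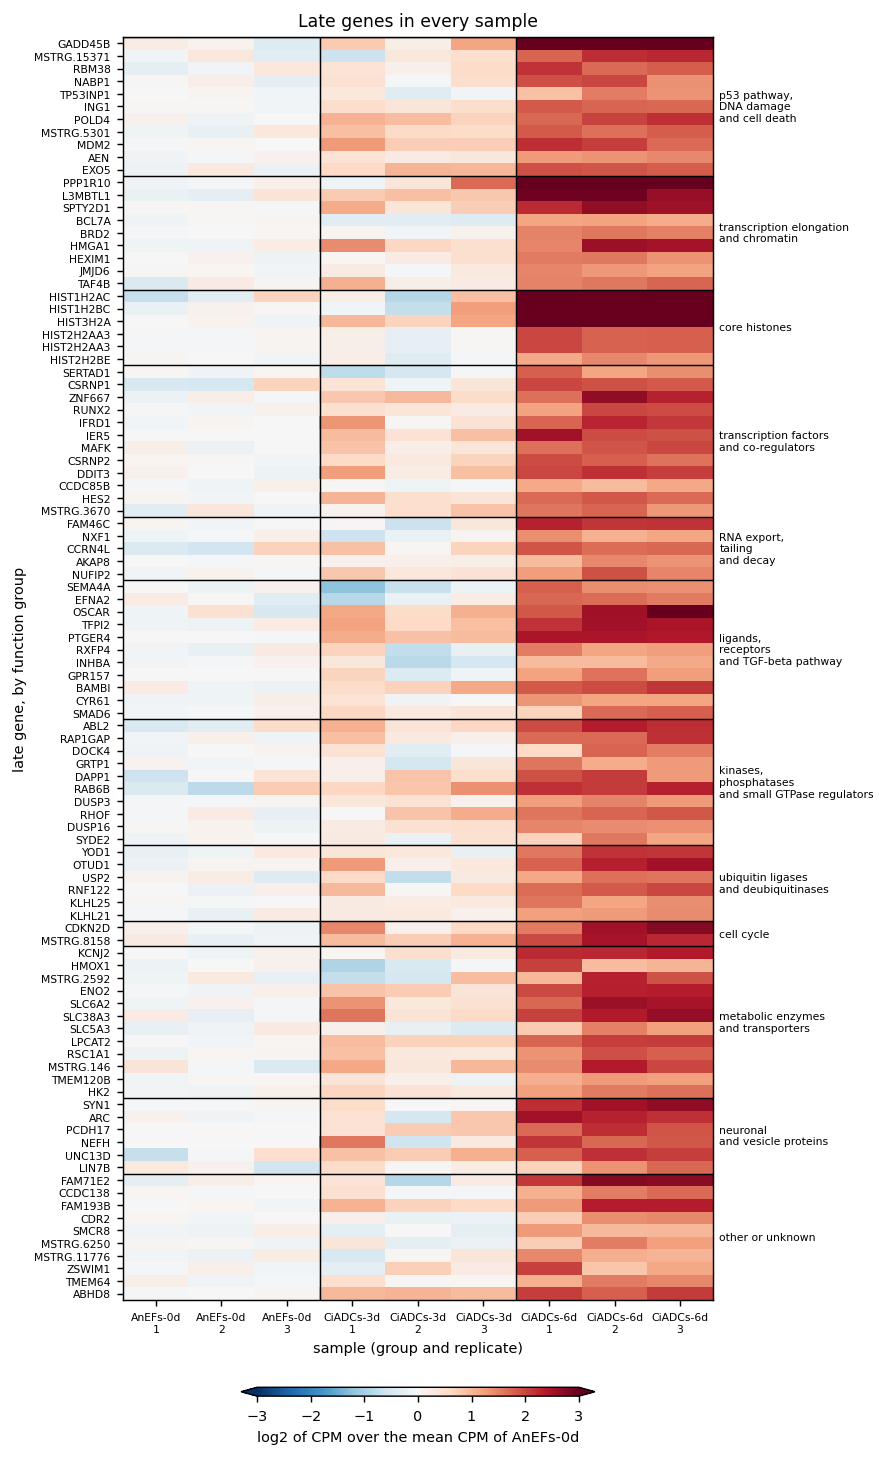
Level of each of 100 of the 101 late genes (rows, by role) in each of the 9 samples (columns), as log2 of CPM over the gene's mean CPM in AnEFs-0d, with the colour scale ending at ±3. Most CiADCs-3d cells are pale, and the 3 CiADCs-6d columns are higher in every row, as the rule required.

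The genes were sorted into 12 roles from their names and annotations after their values were known. Genes of p53 signalling, DNA damage and cell death made up 11 of the 101, with ratios of CiADCs-6d to CiADCs-3d from 2.01 to 6.39 and a median of 2.46. GADD45B (ncbi_618405), a stress sensor that acts on MAP kinases and the cell cycle, had the highest ratio of this group. Its levels were 11, 10.1 and 7.19 CPM in AnEFs-0d, 16.3, 10.6 and 21.5 CPM in CiADCs-3d, and 94.2, 104 and 111 CPM in CiADCs-6d. The lowest CiADCs-6d sample was 4.38 times the highest other sample, and the log2 fold change against CiADCs-3d was 2.66 ± 0.22 (SE).

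MDM2 (ncbi_540378), the ubiquitin ligase that degrades p53, stood at 81, 87.8 and 83.5 CPM in AnEFs-0d, 203, 140 and 141 CPM in CiADCs-3d, and 390, 356 and 275 CPM in CiADCs-6d. It already stood above AnEFs-0d in every CiADCs-3d sample, and its ratio of CiADCs-3d to AnEFs-0d, 1.92, was close to the limit of the rule. TP53INP1 (ncbi_782667), a p53-induced nuclear protein that promotes cell death, had 206, 216 and 192 CPM in AnEFs-0d, 256, 160 and 192 CPM in CiADCs-3d, and 379, 595 and 520 CPM in CiADCs-6d. In TP53INP1 the day 3 values overlapped those of AnEFs-0d, and the ratio of CiADCs-3d to AnEFs-0d was 0.99.

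AEN, an exonuclease that p53 induces and that cuts DNA in dying cells, stood at 62, 64 and 73 CPM in AnEFs-0d, 88, 79.3 and 84.3 CPM in CiADCs-3d, and 162, 170 and 180 CPM in CiADCs-6d. ING1, a growth inhibitor that reads a histone mark and works with p53, stood at 15.94 ± 0.707 CPM in AnEFs-0d, 22.12 ± 1.4 CPM in CiADCs-3d and 54.44 ± 2.07 CPM in CiADCs-6d (SD, n = 3). RBM38, an RNA-binding protein and p53 target, averaged 4.19 CPM in AnEFs-0d, 5.44 CPM in CiADCs-3d and 15.8 CPM in CiADCs-6d. The lowest CiADCs-6d sample was 1.85 times the highest other sample in AEN, 2.3 times in ING1 and 2.25 times in RBM38. The other 5 were POLD4, a small subunit of DNA polymerase delta, EXO5, a single-strand exonuclease, NABP1, which binds single-stranded DNA, and the assembled loci MSTRG.5301, annotated as similar to the death receptor TNFRSF10A, and MSTRG.15371, annotated as the mitochondrial death protein BNIP3. Their CiADCs-6d means ran from 7.479 CPM in MSTRG.15371 to 62.56 CPM in POLD4, and their ratios to CiADCs-3d from 2.01 in EXO5 to 3.85 in MSTRG.15371.

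MDM2 and TP53INP1 are also on a list of 18 p53 targets. Of the other 15 targets that were tested, 4 rose and 0 fell in CiADCs-6d against CiADCs-3d, beside 4.09% and 3.22% of all tested genes. In this comparison 14 of the 15 had a log2 fold change above 0, with a median of 0.79, beside 0.01 over all tested genes. The share of all tested genes above 0 was not counted. CDKN1A, the inhibitor p21 that stops the cell cycle, stood at 206, 202 and 178 CPM in AnEFs-0d, 502, 328 and 362 CPM in CiADCs-3d, and 1141, 1231 and 1161 CPM in CiADCs-6d. It rose by a log2 fold change of 1.55 ± 0.14 (SE) in CiADCs-6d against CiADCs-3d in edgeR's quasi-likelihood test (adjusted p = 6.9e-05), and had also risen by 1.00 in CiADCs-3d against AnEFs-0d (adjusted p = 5.1e-05), which keeps it outside the late set. GDF15, a stress hormone (2.24, adjusted p = 0.000321), the death protein BBC3 (1.64, adjusted p = 2.0e-05) and the RNA-binding protein ZMAT3 (1.14, adjusted p = 0.00375) also rose against CiADCs-3d in that test. Without CiADCs-6d sample 2, ZMAT3 had a log2 fold change of 0.86 and no longer passed. CCNG1, a cyclin that p53 induces, at 0.71, and PHLDA3, an inhibitor of AKT, at 0.94, stayed under the limit of 1.

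The relative GADD45A, also a stress gene, rose in CiADCs-6d against CiADCs-3d by a log2 fold change of 1.40 ± 0.36 in edgeR's quasi-likelihood test (adjusted p = 0.0135). Its CiADCs-3d samples were far apart, at 234, 61.1 and 94.1 CPM, with 268, 374 and 393 CPM in CiADCs-6d just above. The call was lost without CiADCs-3d sample 3 (adjusted p = 0.0619) and without CiADCs-6d sample 3 (adjusted p = 0.0628). GADD45G had a log2 fold change of 0.97.

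**Figure D4:**
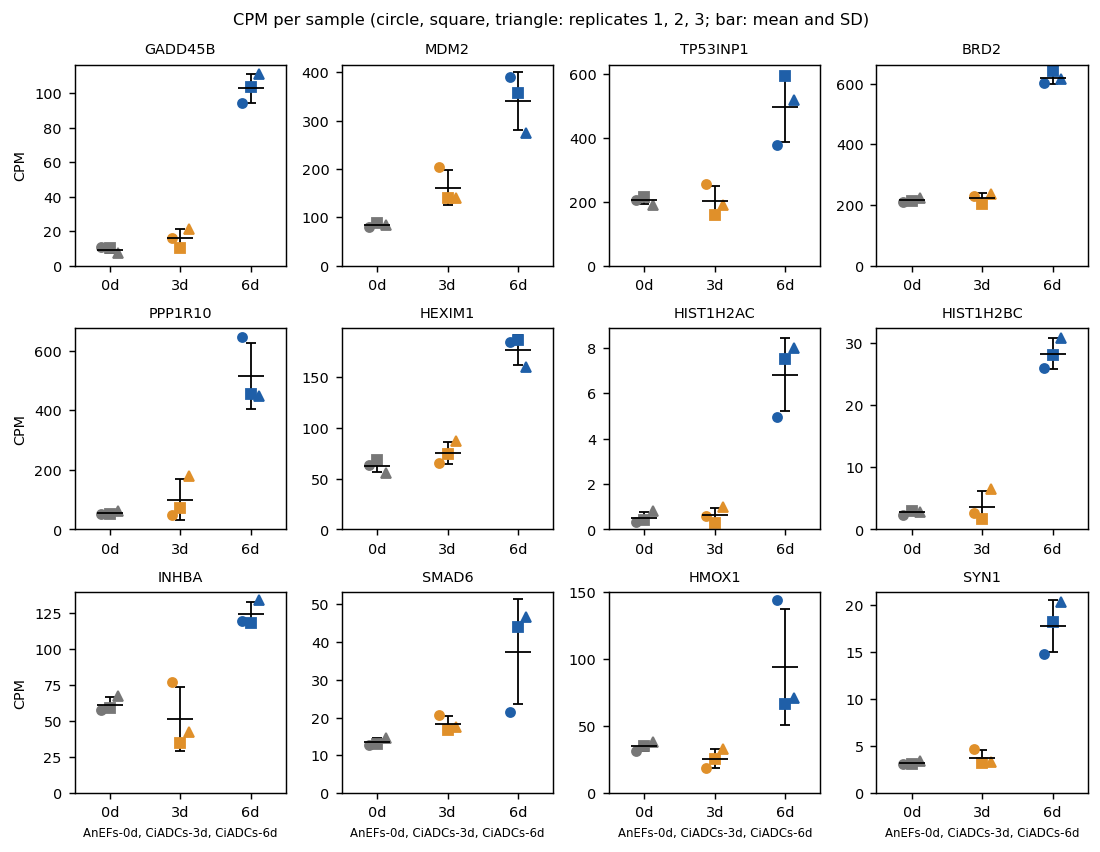
CPM in each sample (circle, square and triangle for samples 1, 2 and 3) with the mean and SD as bars for 12 late genes, in AnEFs-0d, CiADCs-3d and CiADCs-6d from left to right, 1 panel per gene with its own axis from 0. In all 12 panels the CiADCs-6d points lie above the other 6, with 1 HMOX1 sample at 144 CPM beside 66.9 and 71 CPM, and 1 SMAD6 sample at 21.4 CPM beside 44 and 46.7 CPM.

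Of the 101 genes, 10 act on transcription elongation or chromatin. BRD2 (ncbi_505358) was the most abundant of them per length, at a mean of 162 FPKM (fragments scaled to gene length and library size) in CiADCs-6d, and had narrow groups. It stood at 210, 215 and 223 CPM in AnEFs-0d, 230, 203 and 235 CPM in CiADCs-3d, and 602, 641 and 616 CPM in CiADCs-6d, a log2 fold change against CiADCs-3d of 1.46 ± 0.09 (SE). Its day 3 samples overlapped AnEFs-0d, so the whole difference lay between day 3 and day 6. The relative BRD3, which also binds acetylated histones, was not called by edgeR's quasi-likelihood test in CiADCs-6d against CiADCs-3d (0.04, adjusted p = 0.84).

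HEXIM1 (ncbi_539696), the inhibitor of P-TEFb, stood at 63, 68.6 and 55.9 CPM in AnEFs-0d, 65.2, 74.3 and 87 CPM in CiADCs-3d, and 184, 186 and 160 CPM in CiADCs-6d. Against CiADCs-3d its log2 fold change was 1.21 ± 0.12 (SE). The kinase subunit CDK9 was at 89.9, 90.4 and 90.4 CPM in CiADCs-6d, against 89.2, 90.7 and 86.1 CPM in CiADCs-3d (log2 fold change 0.01 ± 0.08). The cyclins CCNT1 (0.45) and CCNT2 (-0.14), the 7SK protein LARP7 (-0.09) and the second inhibitor HEXIM2 (-0.12) were not called in edgeR's quasi-likelihood test. MEPCE, the enzyme that caps 7SK, rose by a log2 fold change of 1.03 ± 0.13 against CiADCs-3d in that test (adjusted p = 0.000307) and differed from AnEFs-0d by 0.03. That call sat at the limit of 1, and MEPCE missed it without CiADCs-3d sample 1 (0.90), CiADCs-3d sample 2 (1.00) or CiADCs-6d sample 1 (0.88).

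PPP1R10 (ncbi_510825), which anchors protein phosphatase 1 in the nucleus, had the highest ratio of the elongation and chromatin genes. It stood at 51, 53.3 and 61.2 CPM in AnEFs-0d, 50.2, 71.4 and 178 CPM in CiADCs-3d, and 644, 454 and 446 CPM in CiADCs-6d. The CiADCs-3d samples were spread, with sample 3 well above the other 2, and the ratio of 5.15 to CiADCs-3d rests on a mean that this sample raises. Its log2 fold change against CiADCs-3d was 2.34 ± 0.37 (SE), and the lowest CiADCs-6d sample was 2.51 times the highest other sample.

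HMGA1, an architectural protein that bends DNA, stood at 42.3, 42.5 and 53.6 CPM in AnEFs-0d, 124, 70.7 and 63.9 CPM in CiADCs-3d, and 128, 271 and 260 CPM in CiADCs-6d. The samples numbered 1 on both days nearly met, at 128 CPM in CiADCs-6d and 124 CPM in CiADCs-3d. Its relative HMGA2 rose against CiADCs-3d (1.42, adjusted p = 0.0106, edgeR's quasi-likelihood test), but lost that call without CiADCs-6d sample 3 (adjusted p = 0.0588). HMGA2 had a log2 fold change of -0.42 in CiADCs-6d against AnEFs-0d.

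L3MBTL1, a reader of methylated histones, averaged 3.417 CPM in AnEFs-0d, 6.083 CPM in CiADCs-3d and 24.05 CPM in CiADCs-6d, 3.95 times CiADCs-3d. SPTY2D1, a histone chaperone, averaged 16.87 CPM in AnEFs-0d, 28.91 CPM in CiADCs-3d and 94.9 CPM in CiADCs-6d, 3.28 times CiADCs-3d. The group also held JMJD6, a hydroxylase of splicing proteins, TAF4B, a subunit of the general factor TFIID, and BCL7A, a subunit of the SWI/SNF remodelling complex. They had CiADCs-6d means of 34.9, 7.482 and 6.102 CPM, and ratios to CiADCs-3d of 2.22, 2.07 and 2.86. BCL7A was lower in CiADCs-3d than in AnEFs-0d in every sample, by a ratio of 0.787.

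Core histones made up 6 of the 101, and 31 further histone rows were among the 14020 tested genes. The ratios of the 6 to CiADCs-3d ran from 2.57 in HIST2H2BE, near the median of 2.47 over all members, to 11. HIST1H2AC (11) and HIST1H2BC (7.87) held the highest ratios of the set, followed by GADD45B (6.39), which is not a histone. HIST1H2AC (ncbi_506900, RefSeq symbol H2AC6) stood at 0.321, 0.415 and 0.828 CPM in AnEFs-0d, 0.594, 0.289 and 0.972 CPM in CiADCs-3d, and 4.97, 7.54 and 7.99 CPM in CiADCs-6d. Its ratio of 11 to CiADCs-3d was the highest of the 101 and started from under 1 CPM. HIST1H2BC (ncbi_787269, H2BC4) stood at 2.38, 3.03 and 2.83 CPM in AnEFs-0d, 2.59, 1.68 and 6.51 CPM in CiADCs-3d, and 26, 28.1 and 30.9 CPM in CiADCs-6d. The lowest CiADCs-6d sample was 5.11 times the highest other sample in HIST1H2AC and 3.99 times in HIST1H2BC, and the genes are neighbours in the RefSeq annotation (assembly ARS-UCD2.0).

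HIST3H2A (H2AC25) averaged 0.8127 CPM in AnEFs-0d, 1.593 CPM in CiADCs-3d and 8.168 CPM in CiADCs-6d. HIST2H2BE (H2BC21), the most abundant of the histones, stood at 43.6, 41.7 and 39 CPM in AnEFs-0d, 47.5, 32.1 and 39.7 CPM in CiADCs-3d, and 91.2, 113 and 102 CPM in CiADCs-6d. HIST2H2AA3 appears as 2 rows (H2AC19 and H2AC18) with identical values in every sample, 12.7, 10.9 and 11.1 CPM in CiADCs-6d against 3.57, 2.67 and 3.28 CPM in CiADCs-3d. The 101 genes therefore hold 100 separate profiles, and the level of each of these rows is uncertain, since reads may have been split between them, which was not examined.

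Of 31 tested histone rows outside the set, 9 rose and 1 fell in CiADCs-6d against CiADCs-3d in edgeR's quasi-likelihood test, beside 4.09% and 3.22% of all tested genes, and the median log2 fold change was 0.85. Those that rose were 3 further rows named HIST1H2BC (2.47, 2.54 and 4.72), 2 named HIST1H1D (1.26 and 2.09), HIST3H2BB (2.35), H3110 (3.54), HIST1H2BM and HIST1H1T, and only HIST1H2BM reached a mean of 5 CPM in CiADCs-6d. Against AnEFs-0d, these HIST1H2BC rows, HIST3H2BB and HIST1H1T were called higher. There 1 HIST1H1D row was called lower (-1.33), and the other (-0.14), HIST1H2BM (0.76) and H3110 (1.27) were not called. CENPA, the centromeric H3 variant, fell against CiADCs-3d (-1.59, adjusted p = 0.0327, edgeR's quasi-likelihood test). In CiADCs-6d against CiADCs-3d, HIST1H2BM (1.45, adjusted p = 0.00596) and HIST1H1T (4.52, adjusted p = 0.000682) rose in edgeR's quasi-likelihood test, HIST1H1T to a mean of 3.044 CPM in CiADCs-6d, against 0.1166 CPM in CiADCs-3d. The variants H2AFZ (0.85), H2AFX (0.95) and H2AFV (-0.07), the H2B gene HIST1H2BN (0.77) and the linker histone H1F0 (-0.65) were not called. These genes were picked after their values were seen. Most core histone transcripts of dividing cells lack a poly(A) tail, and the sources differ on whether poly(A) selection or ribosomal RNA depletion was used, so the part of RNA selection in the histone values was not tested.

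Transcription factors and co-regulators made up 12 genes, with ratios to CiADCs-3d from 2.06 to 3.7. SERTAD1, a co-regulator of E2F, had the highest ratio, at 27.7, 25.1 and 27.9 CPM in AnEFs-0d, 15.8, 19 and 26.1 CPM in CiADCs-3d, and 92.8, 61.2 and 71 CPM in CiADCs-6d. Its CiADCs-3d mean was below AnEFs-0d, at a ratio of 0.754. RUNX2, the master regulator of bone formation, stood at 27.2, 27.1 and 31.2 CPM in AnEFs-0d, 39.7, 36.4 and 34 CPM in CiADCs-3d, and 65.8, 114 and 111 CPM in CiADCs-6d. Its relatives RUNX1 (0.61) and RUNX3 (0.64) were not called in edgeR's quasi-likelihood test against CiADCs-3d, and 8 bone and cartilage markers outside the set summed to 330 to 335 CPM in AnEFs-0d, 62.5 to 77.5 CPM in CiADCs-3d and 71.6 to 76 CPM in CiADCs-6d.

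DDIT3 (CHOP), a stress factor that ATF4 induces, stood at 16.5, 14.9 and 13.6 CPM in AnEFs-0d, 35.8, 17.6 and 28.3 CPM in CiADCs-3d, and 60.7, 68.9 and 63.5 CPM in CiADCs-6d. Of 17 other tested genes of the ATF4 amino acid response, 1 rose and 0 fell in CiADCs-6d against CiADCs-3d. These counts were near the 4.09% and 3.22% of all tested genes. In this comparison 16 of the 17 had a log2 fold change above 0, with a median of 0.59, beside 0.01 over all tested genes. The share of all tested genes above 0 was not counted. The gene that rose was ATF3 (1.60 ± 0.28, adjusted p = 0.00201, edgeR's quasi-likelihood test), a transcription factor of stressed cells. PHGDH (0.91), VLDLR (0.65) and SLC3A2 (0.76) did not reach a log2 fold change of 1. PHGDH was called higher with the replicate number as a block (1.02, adjusted p = 0.0221, edgeR's quasi-likelihood test), with limma on log2(FPKM + 1) (1.07) and on log2(FPKM + 0.1) (1.08), and without CiADCs-3d sample 1 (1.46). SLC3A2 was also called without CiADCs-3d sample 1 (1.21), and all 3 genes were without both CiADCs samples numbered 1.

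The immediate response genes IER5 and CSRNP1 and the related CSRNP2 averaged 152.2, 55.71 and 86.1 CPM in CiADCs-6d, against 59.06, 17.39 and 35.76 CPM in CiADCs-3d. IER5, a co-factor of heat shock factor 1, had its highest value in CiADCs-6d sample 1, at 196 CPM, with 132 and 128 CPM in the others. MAFK, a small MAF protein that pairs with NRF2 and BACH1, stood at 45.6, 53.6 and 58.3 CPM in CiADCs-6d, against 26.1, 16.7 and 18.5 CPM in CiADCs-3d. Its relative MAFF rose by a log2 fold change of 1.87 ± 0.18 against CiADCs-3d (adjusted p = 7.5e-05, edgeR's quasi-likelihood test), and had risen by 1.47 in CiADCs-3d against AnEFs-0d (adjusted p = 2.8e-05). MAFG had a log2 fold change of 0.81. The remaining factors were IFRD1, a transcriptional co-regulator, CCDC85B, a repressor of beta-catenin signalling, HES2, a basic helix-loop-helix repressor, ZNF667, a zinc finger protein, and MSTRG.3670, a locus annotated as a zinc finger protein. Their CiADCs-6d means ran from 5.745 CPM in MSTRG.3670 to 160.3 CPM in IFRD1, with ratios to CiADCs-3d of 2.06 to 2.8.

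The set held 5 genes of RNA export, tailing and decay. FAM46C (RefSeq symbol TENT5C), a poly(A) polymerase, stood at 12.2, 10.9 and 11.7 CPM in AnEFs-0d, 11.9, 7.41 and 14.8 CPM in CiADCs-3d, and 57.1, 51.5 and 52.1 CPM in CiADCs-6d. Its day 3 values overlapped AnEFs-0d, and its ratio of 4.71 was the highest among the 5. NXF1, the main export receptor of mRNA, stood at 85, 67.4 and 72.5 CPM in CiADCs-6d, against 20.8, 27.9 and 34 CPM in CiADCs-3d, and its CiADCs-3d mean was below AnEFs-0d at a ratio of 0.86. CCRN4L (nocturnin), a clock-regulated phosphatase, NUFIP2, an RNA-binding partner of FMRP, and AKAP8, an anchoring protein of the nucleus, had ratios to CiADCs-3d of 2.28, 2.06 and 2.16.

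Ligands, receptors and TGF-beta pathway genes made up 11 of the set. CYR61 (ncbi_508941, CCN1), a matrix protein that binds integrins, was the most abundant of all 101 genes per length at a mean of 690 FPKM in CiADCs-6d. It stood at 549, 544 and 679 CPM in AnEFs-0d, 782, 547 and 584 CPM in CiADCs-3d, and 1489, 1338 and 1331 CPM in CiADCs-6d. The relative CCN2 (CTGF), a target of TGF-beta and YAP, rose against CiADCs-3d by a log2 fold change of 1.11 (adjusted p = 0.000384, edgeR's quasi-likelihood test) but was lower than in AnEFs-0d by a log2 fold change of -1.47. Without CiADCs-6d sample 1, CCN2 had 0.93 against CiADCs-3d and was not called. Of 5 tested relatives in the CCN family, CCN2 among them, 1 rose and 0 fell against CiADCs-3d, beside 4.09% and 3.22% of all tested genes. Of these 5, 2 had a log2 fold change above 0, and the median was -0.40.

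INHBA (ncbi_281867), the subunit that forms activin A, stood at 57.5, 59.2 and 66.9 CPM in AnEFs-0d, 76.9, 34.9 and 42.3 CPM in CiADCs-3d, and 119, 118 and 134 CPM in CiADCs-6d. It was below AnEFs-0d in CiADCs-3d samples 2 and 3 and above it in sample 1. SMAD6, an inhibitory SMAD of the BMP pathway, stood at 12.7, 13.1 and 14.7 CPM in AnEFs-0d, 20.6, 16.6 and 17.6 CPM in CiADCs-3d, and 21.4, 44 and 46.7 CPM in CiADCs-6d. Its CiADCs-6d sample 1 lay only 1.04 times above the highest CiADCs-3d sample, while the other 2 stood well above the CiADCs-3d mean of 18.26 CPM. BAMBI, a decoy receptor for TGF-beta ligands, averaged 1.809 CPM in AnEFs-0d, 3.185 CPM in CiADCs-3d and 7.193 CPM in CiADCs-6d.

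The second inhibitory SMAD, SMAD7, a classic target of TGF-beta, followed another course. It fell to 9.4, 4.48 and 5.66 CPM in CiADCs-3d, against 30.7, 30.1 and 31.3 CPM in AnEFs-0d, and stood at 16, 12.2 and 12.1 CPM in CiADCs-6d. The log2 fold change in CiADCs-6d against CiADCs-3d was 1.04 (adjusted p = 0.00537, edgeR's quasi-likelihood test) and against AnEFs-0d -1.23 (adjusted p = 0.00021). The first was at the limit of the call and was lost without CiADCs-3d sample 2 (0.83), CiADCs-3d sample 3 (0.94) or CiADCs-6d sample 1 (0.85).

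INHBA and BAMBI are on a list of BMP and TGF-beta ligands and antagonists, of which 12 other genes were tested. In CiADCs-6d against CiADCs-3d, 3 of them rose and 1 fell in edgeR's quasi-likelihood test, beside 4.09% and 3.22% of all tested genes, with a median log2 fold change of 0.72. TGFB3, a TGF-beta ligand (1.60, adjusted p = 7.0e-05), the BMP antagonist CHRD (1.85, adjusted p = 0.000491) and the activin antagonist FST (1.24, adjusted p = 0.00111) rose, and the BMP antagonist GREM1 fell (-1.09, adjusted p = 0.000321). GREM1 stood at 427, 365 and 327 CPM in CiADCs-6d, against 646, 898 and 803 CPM in CiADCs-3d, and had a log2 fold change of -0.98 without CiADCs-3d sample 2, which missed the limit. FSTL3, another activin antagonist, had 0.77 and was not called.

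SEMA4A, a semaphorin, had the lowest ratio of CiADCs-3d to AnEFs-0d of all 101 genes, 0.656. Its levels were 7.33, 6.52 and 7.89 CPM in AnEFs-0d, 3.13, 4.57 and 6.55 CPM in CiADCs-3d, and 25.1, 18.9 and 18.8 CPM in CiADCs-6d. PTGER4, a receptor for prostaglandin E, had very even samples, at 11.5, 11.5 and 11.2 CPM in AnEFs-0d, 24.7, 21 and 21.9 CPM in CiADCs-3d, and 61.9, 62.6 and 60.3 CPM in CiADCs-6d. The other prostaglandin E receptors PTGER1 (0.45), PTGER2 (0.51) and PTGER3 (0.58) were not called in CiADCs-6d against CiADCs-3d, and all 3 were called higher in CiADCs-3d than in AnEFs-0d by edgeR's quasi-likelihood test, PTGER3 by a log2 fold change of 2.01 (adjusted p = 1.2e-05). EFNA2, an ephrin, TFPI2, a secreted protease inhibitor, GPR157, an orphan receptor, RXFP4, a relaxin family receptor, and OSCAR, an immunoglobulin-like receptor of osteoclasts, had CiADCs-6d means of 7.337 to 30.86 CPM and ratios to CiADCs-3d of 2.38 to 3.64. In OSCAR the CiADCs-6d samples were wide apart, at 4.17, 6.74 and 11.1 CPM.

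Kinases, phosphatases and regulators of small GTPases made up 10 genes, all with ratios to CiADCs-3d between 2 and 2.75. ABL2, a tyrosine kinase that binds actin, stood at 64.4, 70.7 and 128 CPM in AnEFs-0d, 185, 115 and 136 CPM in CiADCs-3d, and 342, 448 and 409 CPM in CiADCs-6d. AnEFs-0d sample 3 overlapped CiADCs-3d in ABL2, and no earlier sample reached the CiADCs-6d values. Its relative ABL1 was not called against CiADCs-3d (0.27). DUSP16, a phosphatase of JNK and p38, had even samples, at 22.6, 22 and 21.4 CPM in CiADCs-6d, against 9.78, 11.3 and 11.5 CPM in CiADCs-3d. DUSP3, a phosphatase of ERK and JNK, averaged 65.63 CPM in CiADCs-6d and 31.88 CPM in CiADCs-3d.

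Among 7 other MAP kinase phosphatases tested, 2 rose and 0 fell in CiADCs-6d against CiADCs-3d, beside 4.09% and 3.22% of all tested genes. The 2 were DUSP5 (1.37, adjusted p = 0.00606, edgeR's quasi-likelihood test) and DUSP8 (1.04, adjusted p = 0.00291), and DUSP8 missed the limit without CiADCs-3d sample 3 (0.91), CiADCs-6d sample 2 (0.96) or CiADCs-6d sample 3 (0.83). DUSP1 (-0.19) and DUSP10 (0.20) were not called there, but had risen by 2.45 (adjusted p = 1.5e-07) and 4.50 (adjusted p = 1.4e-08) in CiADCs-3d against AnEFs-0d. The other members of this role were RHOF, a GTPase that forms filopodia, DOCK4, an activator of RAC, RAB6B, a GTPase of Golgi transport, RAP1GAP, SYDE2 and GRTP1, which stimulate GTP hydrolysis, and DAPP1, an adaptor that binds phosphoinositides. Their CiADCs-6d means were 5.082 to 34.96 CPM. RHOF and the membrane protein gene TMEM120B, also of the late set, are neighbours in the RefSeq annotation.

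The 6 ubiquitin ligases and deubiquitinases had ratios to CiADCs-3d from 2.11 to 3.5. KLHL21, a Cullin 3 adaptor needed for cell division, was the highest in counts, at 203, 210 and 231 CPM in CiADCs-6d, against 104, 106 and 94.7 CPM in CiADCs-3d. YOD1, a deubiquitinase of the degradation pathway at the endoplasmic reticulum, had the highest ratio, at 18.6, 27.6 and 27.2 CPM in CiADCs-6d, against 7.89, 7.75 and 5.33 CPM in CiADCs-3d. KLHL25, another Cullin 3 adaptor, the ligase RNF122 and the deubiquitinases OTUD1 and USP2 had CiADCs-6d means of 10.87 to 33.91 CPM.

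Only 2 genes were placed under the cell cycle. CDKN2D (p19INK4D), which inhibits the kinases CDK4 and CDK6, stood at 16.3, 14.2 and 13.1 CPM in AnEFs-0d, 39.8, 16.1 and 22 CPM in CiADCs-3d, and 43, 83.8 and 98.8 CPM in CiADCs-6d. Its samples numbered 1 almost met, with 43 CPM in CiADCs-6d and 39.8 CPM in CiADCs-3d. The related inhibitors CDKN2A (-0.10) and CDKN2B (0.32) were not called against CiADCs-3d in edgeR's quasi-likelihood test, and had risen by 1.44 and 2.05 in CiADCs-3d against AnEFs-0d (adjusted p = 1.5e-07 and 5.6e-08). MSTRG.8158, annotated as the replication protein GINS1, averaged 10.28 CPM in CiADCs-6d, 2.55 times CiADCs-3d.

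Metabolic enzymes and transporters made up 12 genes. HMOX1 (ncbi_513221), which breaks down heme, stood at 31.4, 35.1 and 38.3 CPM in AnEFs-0d, 18.8, 25.3 and 33.3 CPM in CiADCs-3d, and 144, 66.9 and 71 CPM in CiADCs-6d. CiADCs-6d sample 1 stood far above the other 2, and all 3 lay above the rest. HMOX1 is on a list of the NRF2 response, of which 14 other genes were tested; 1 rose and 0 fell in CiADCs-6d against CiADCs-3d, near the 4.09% and 3.22% of all tested genes, and the median log2 fold change was -0.01. The gene that rose was OSGIN1 (1.45 ± 0.23, adjusted p = 0.00114, edgeR's quasi-likelihood test), while the ferritins FTH1 (0.27) and FTL (-0.12) and thioredoxin TXN (0.08) were not called.

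KCNJ2, an inward rectifier potassium channel, had the highest ratio of the transporters, 4.03. It stood at 9.53, 8.81 and 10.5 CPM in AnEFs-0d, 10, 13.4 and 11.6 CPM in CiADCs-3d, and 45.2, 46.3 and 49.8 CPM in CiADCs-6d. The glycolytic isoforms among the members were HK2, the insulin-regulated hexokinase, and ENO2, the neuronal enolase. HK2 stood at 178, 221 and 237 CPM in CiADCs-6d, against 118, 102 and 92.1 CPM in CiADCs-3d, and ENO2 at 19.4, 24.9 and 25.1 CPM in CiADCs-6d, against 8.91, 8.37 and 6.47 CPM in CiADCs-3d.

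Their sister isoforms did not share this course. HK1 (-0.32) and HK3 (-0.12) were not called against CiADCs-3d. ENO1, the ubiquitous enolase, was not called in CiADCs-6d against CiADCs-3d (-0.41) and was lower in CiADCs-6d than in AnEFs-0d (-1.99, adjusted p = 6.9e-09, edgeR's quasi-likelihood test). ENO3, the muscle enolase, fell to 16.5, 16.2 and 18 CPM in CiADCs-6d, against 31.9, 37.2 and 45.4 CPM in CiADCs-3d (-1.19, adjusted p = 0.000165).

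The remaining members of this role were the solute carriers SLC5A3 (inositol), SLC6A2 (noradrenaline) and SLC38A3 (glutamine), RSC1A1 (RefSeq symbol DDI2, a protease), LPCAT2, an enzyme of phospholipid remodelling, TMEM120B, a membrane protein linked to fat cell differentiation in mice, and MSTRG.2592 and MSTRG.146, both annotated as a polyamine oxidase. RSC1A1 stood at 233, 352 and 321 CPM in CiADCs-6d, against 168, 114 and 113 CPM in CiADCs-3d, and the other 7 averaged 5.603 to 50.35 CPM in CiADCs-6d. The relative TMEM120A was lower in CiADCs-6d than in AnEFs-0d (-1.54, adjusted p = 4.4e-07, edgeR's quasi-likelihood test) and was not called against CiADCs-3d (-0.45).

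A group of 6 genes is known from neurons and vesicles. SYN1 (ncbi_281510), a synaptic vesicle protein, stood at 3.12, 3.07 and 3.4 CPM in AnEFs-0d, 4.7, 3.22 and 3.34 CPM in CiADCs-3d, and 14.8, 18.2 and 20.3 CPM in CiADCs-6d. ARC, an activity-induced gene of synapses, stood at 3.71, 3.16 and 3.27 CPM in AnEFs-0d, 4.59, 2.36 and 5.88 CPM in CiADCs-3d, and 19.5, 16.8 and 15.5 CPM in CiADCs-6d. In both genes the day 3 samples overlapped AnEFs-0d. NEFH, the heavy neurofilament, stood at 29.4, 22.1 and 24.5 CPM in CiADCs-6d, against 20, 4.38 and 8.03 CPM in CiADCs-3d, where sample 1 was far above the others. PCDH17, a protocadherin, UNC13D, which primes granules for release, and LIN7B, a scaffold of synapses, had CiADCs-6d means of 8.533, 5.4 and 5.19 CPM.

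Neuron markers outside the set were low. Of these 9 neuron markers, NEFM, ELAVL4, STMN2 and GAP43 had no count in any sample, and the 9 summed to 47 to 52.6 CPM in AnEFs-0d, 50.8 to 67 CPM in CiADCs-3d and 27.7 to 56.2 CPM in CiADCs-6d. Of 10 other tested genes of a neuronal and neuroendocrine list, 1 rose and 1 fell in CiADCs-6d against CiADCs-3d in edgeR's quasi-likelihood test, beside 4.09% and 3.22% of all tested genes, and the median log2 fold change was -0.37. SCG2, a granule protein, rose (2.53, adjusted p = 0.00787) to 0.89, 4 and 2.57 CPM in CiADCs-6d. SCG5 (0.15), UCHL1 (-0.52) and DCX (-0.87) were not called. DCX was called lower without CiADCs-6d sample 1 (-1.32), without CiADCs-3d sample 1 (-1.02), without both (-1.44) and with limma on log2(FPKM + 0.1) (-1.11). INA, a neurofilament protein that is not on that list, fell (-1.40, adjusted p = 0.00954).

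**Figure D5:**
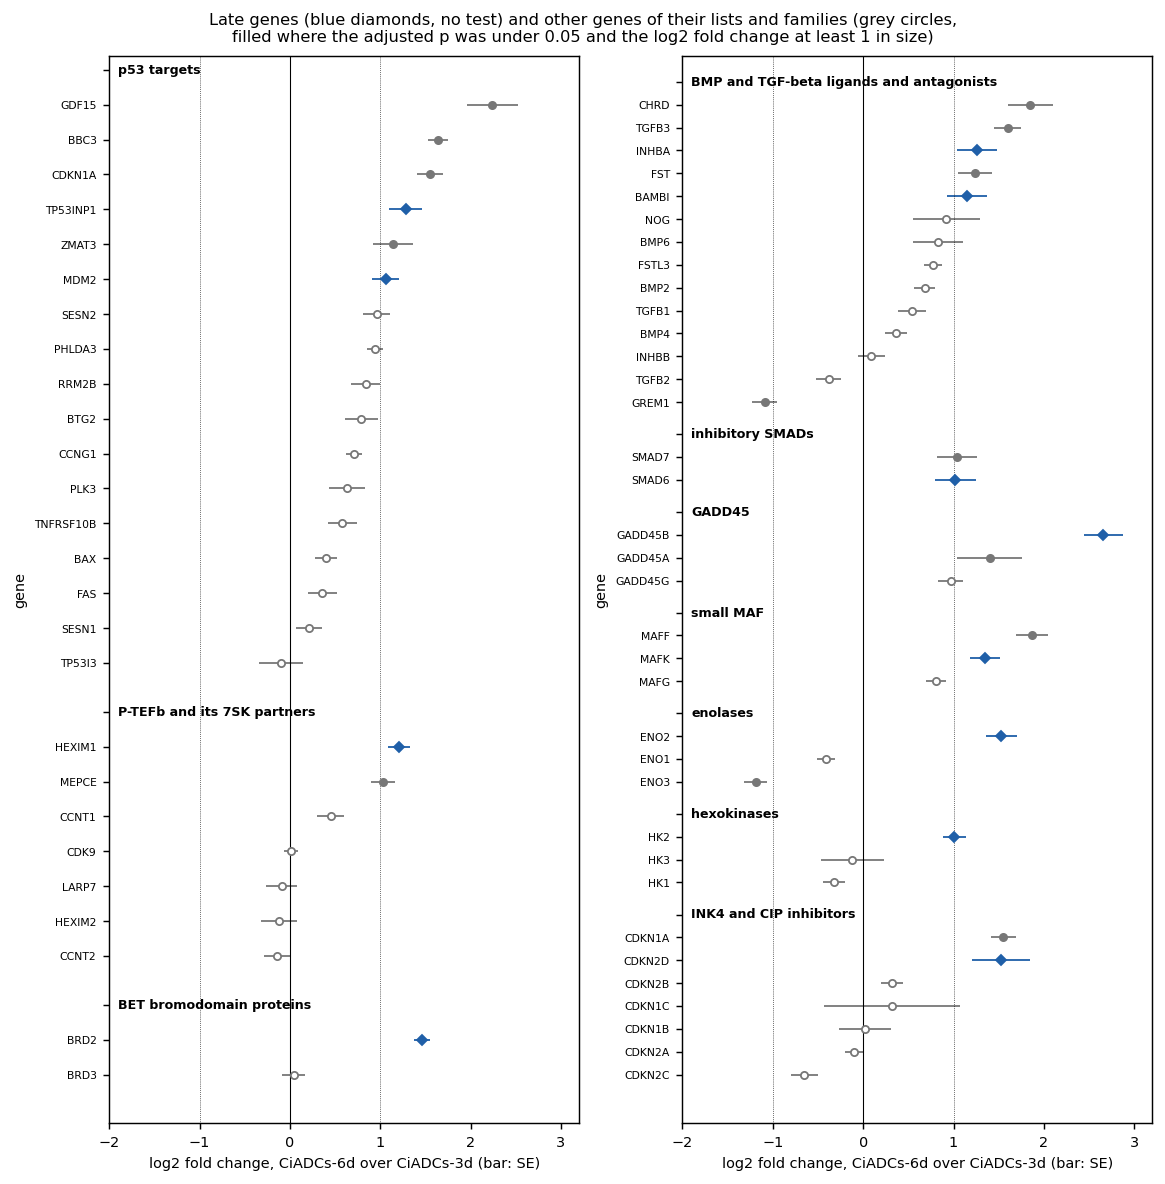
Log2 fold change of CiADCs-6d over CiADCs-3d with its SE (x axis) for late genes (blue diamonds, no test) and other genes of the same list or family (grey circles, filled where edgeR's quasi-likelihood test called them), under 10 list and family names. GDF15 (2.24) and MAFF (1.87) lie far to the right among the grey circles, and BRD3 (0.04), CDK9 (0.01) and ENO1 (-0.41) lie near or below 0.

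Over 24 gene families with a member, 59 relatives were tested in CiADCs-6d against CiADCs-3d; 9 rose and 2 fell, beside 4.09% and 3.22% of all tested genes.

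The last 10 genes had other or unknown roles. FAM71E2 (RefSeq symbol GARIN5B) had the highest ratio of them, 5.77, at 4.12, 6.45 and 6.22 CPM in CiADCs-6d, against 1.24, 0.529 and 1.14 CPM in CiADCs-3d. MSTRG.6250, an assembled locus with no named product, was the second most abundant of the 101 per length at 239 FPKM in CiADCs-6d. ABHD8, a hydrolase family member, SMCR8, a partner of C9orf72 in autophagy, and FAM193B averaged 175.1, 80.27 and 76.74 CPM in CiADCs-6d. CDR2, an antigen of the cerebellum, CCDC138, TMEM64, ZSWIM1 and MSTRG.11776, annotated as a TLC domain protein, averaged 8.504 to 60.66 CPM. In ZSWIM1 the CiADCs-6d samples were 13, 5.56 and 6.97 CPM, and the lowest was 1.09 times the highest earlier sample.

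Of the 101 genes, 7 were on 5 of 23 lists of pathways and cell functions, and the other 18 lists held none. No gene of the mature adipocyte, fatty acid oxidation, fatty acid and cholesterol synthesis, retinoid, complement, interferon, antigen presentation or chemokine lists was a member. With 101 members among 14020 tested genes, most lists of this length would hold none, so nothing is read from an empty list. Of 18 tested genes of the mature adipocyte list, 1 rose and 3 fell in CiADCs-6d against CiADCs-3d, beside 4.09% and 3.22% of all tested genes. In CiADCs-6d against AnEFs-0d, 9 of them were higher and 4 lower, beside 21.9% and 13.4% of all tested genes. Over all lists, 361 genes outside the set were tested, and 28 rose and 18 fell in CiADCs-6d against CiADCs-3d, beside 4.09% and 3.22% of all tested genes. Without CiADCs-3d sample 1 these counts were 47 and 30, without CiADCs-6d sample 1 33 and 38, and without both 52 and 47. Over all tested genes the calls moved too, to 715 and 650, 660 and 832, and 887 and 1080 in the same order, beside 574 and 451 with all 9 samples.

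Gene length and annotation were not used by the rule. Of the 93 with an NCBI gene identifier, all were found in the RefSeq annotation, and their gene spans had a median of 14782 bases, against 25760 bases over 10226 other genes with at least 5 CPM in CiADCs-6d, with quartiles that overlapped (6386 to 30789 and 10209 to 65044 bases). The length implied by counts and FPKM, which follows the transcript, had medians of 2751 and 2659 bases. In the annotation of the deposited table, nucleosome organization was listed for 9 of 80 annotated members (11.2%) and 0.769% of all annotated tested genes, a count in which the 6 histone rows stand. DNA repair was listed for 5 members (6.25%), HIST1H2AC and HIST3H2A among them, and 1.07% of tested genes, cell proliferation for 11.2% and 4.29%, and transcription for 17.5% and 9.38%, while transcription from RNA polymerase II promoters was listed for 6.25% and 7.55%. The MAPK pathway was listed for 5 of 41 members with a pathway (12.2%) and 4.33% of tested genes, the FoxO pathway for 9.76% and 2.09%, and metabolic pathways for 12.2% and 19.3%. These shares are descriptions, and nothing was tested on them.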

How the data were processed

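Expected counts and FPKM were deposited by the authors in 1 table of 21512 genes, 21039 with an NCBI Gene ID and 473 assembled loci. The expected counts are reads estimated per gene, not normalized (5.48% of the deposited count values are not whole). The authors' FPKM values, deposited beside them, are per kilobase of gene and per library size. The submitters' processing notes list HISAT2 2.2.4, RSEM, StringTie 1.3.1 and fastp 0.18.0 with no roles, while the study's methods name TopHat and HTSeq, and the genome build is not given in the sources used here. The labels name a kit that depletes ribosomal RNA. The methods name oligo(dT) enrichment for eukaryotic mRNA, and also a kit that removes ribosomal RNA, for prokaryotic mRNA.

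CPM used the column totals. Counts were rounded, and filterByExpr (minimum count 10, minimum total 15) left 14020 genes, with all 101 members among them. EdgeR 4.0.16 (R 4.3.3) fitted 1 coefficient per group to all 9 samples with TMM scaling and a quasi-likelihood test, without a replicate block. Calls needed a Benjamini-Hochberg adjusted p under 0.05 and a log2 fold change of 1 or more in size. Each SE was taken as the fold change on the log2 scale over the square root of F. The pipeline was tested on simulated data. Figures used Python 3.11.15 and matplotlib 3.10.9. Gene names, spans and neighbours came from RefSeq (ARS-UCD2.0).

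The members and the gene lists were chosen with earlier results of these data known, and the roles, families and histones were set after values were seen. The rule for naming genes took the 30 members with the highest CiADCs-6d mean, the 15 with the largest ratio to the higher of the other groups, members in a list, genes at each limit, and up to 3 other genes of a list by level. Other list genes and relatives were named because they passed the test or belong to a member's family, after their values were seen. A few genes that counts include are not reported here by name. Alternatives were DESeq2 1.42.0, column totals, no filter, limma 3.58.1 on log2(FPKM + 1) or log2(FPKM + 0.1), other limits of the rule, a replicate block and each sample left out.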

Additional observations from a re-analysis of the deposited data

How the results depend on the processing

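The number of genes meeting the rule was 383 with a ratio of 1.5, 20 with a ratio of 3, 167 with at least 1 CPM, 64 with CiADCs-3d under 1.5 times AnEFs-0d and 246 without that limit, against 101. Leaving out 1 sample gave 83 to 182, and leaving out both CiADCs samples numbered 1, an alternative chosen after seeing the data, 255. TMM scaling gave 100 genes (97 of the 101), DESeq2 size factors 92 (91) and FPKM 86 (75). Genes called higher and lower in CiADCs-6d against CiADCs-3d numbered 574 and 451; limma on log2(FPKM + 1) gave 224 and 97, on log2(FPKM + 0.1) 381 and 297, DESeq2 550 and 474, leaving out both samples numbered 1 887 and 1080, and leaving out 1 sample 408 to 715 and 293 to 832, the lowest without CiADCs-3d sample 3 and the highest without CiADCs-6d sample 1 for the lower calls. Against AnEFs-0d, limma on log2(FPKM + 1) gave 1824 and 1223 in CiADCs-6d (3075 and 1874 in edgeR) and 1433 and 928 in CiADCs-3d (2552 and 1393), and leaving out 1 sample gave 3029 to 3182 and 1854 to 2160 in CiADCs-6d and 2498 to 2675 and 1368 to 1429 in CiADCs-3d. List genes outside the set called higher (28) and lower (18) became 52 and 47 without both samples numbered 1, and 24 to 47 and 15 to 38 without 1 sample. The cause of these differences was not tested. A replicate block gave 513 and 394 calls against CiADCs-3d, 3041 and 1874 in CiADCs-6d against AnEFs-0d, 2507 and 1382 in CiADCs-3d against AnEFs-0d, and 31 and 18 among the list genes. Same-numbered samples of CiADCs-3d and CiADCs-6d had correlations of -0.37, -0.21 and -0.13 in their deviations, and differently numbered ones -0.14 to 0.28. Deviations within groups of 3 samples constrain each other, so these values cannot show whether a shared number marks a shared origin. No member's log2 fold change against CiADCs-3d changed sign under any alternative run, and its median over members ran from 1.13 to 1.45. The rule had placed every CiADCs-6d sample above every CiADCs-3d sample, so nothing is read from the unchanged sign. With limma on log2(FPKM + 1), 17 of the 100 members with a value moved by more than the spread between replicates. The number of samples limits all tests, and members under 10 CPM in CiADCs-6d rest on the fewest reads.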
